A study of Mus musculus with 6 samples.

Results

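Broad rCGG-specific regions are the stretches of mouse cerebellar DNA, each over 2000 bp wide, at which the deposited comparison listed more 5-hydroxymethylcytosine (5hmC) in rCGG mice than in wildtype mice. They were chosen by their width alone, the end minus the start of each line of the rCGG-specific list. The rule found 229 of the 4311 rCGG-specific regions, 5.31% (95% exact interval 4.66% to 6.02%). Both lists together hold 12969 regions, of which 8658 are specific to wildtype. The study compared cerebella of 3 wildtype littermates with those of 3 rCGG animals, which the labels also name FXTAS, all of strain C57BL/6 and 16 weeks of age. No other treatment or allele is named for either group. The sources used here do not give the construct, its promoter, the cells in which the repeat is active or the sex of the animals.

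The cytosine mark 5hmC is formed when TET enzymes oxidise 5-methylcytosine. Unlike in most tissues it is abundant in neurons, where it is found mainly in the bodies of active genes and at distal regulatory elements and is scarce at active start sites. Fragile X-associated tremor/ataxia syndrome (FXTAS) affects people whose FMR1 gene holds a moderately expanded CGG repeat, and the Purkinje neurons of the cerebellum are among the cells lost. A stretch of several kilobases is wider than a typical region of the rCGG-specific list, whose median width is 853 bp. How many captured fragments such a stretch spans was not determined.

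Every value below comes from positions, widths and the authors' score. Depth per library is unknown, nothing is known of the spread between animals, and regions rather than animals are counted. Shares carry 95% exact (Clopper-Pearson) intervals, and differences of shares carry 95% Newcombe intervals. Both cover counting error only and are too narrow where neighbouring regions depend on each other. No p-value was computed. The mm9 coordinates count from 1. Genes and sequences under the regions were not analysed here.

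The 229 regions made up a small share of the list but more of its length. Together they covered 0.636 Mb, 14.6% of the 4.35 Mb in the list. Their widths ran from 2001 to 5375 bp with a median of 2590 bp and an interquartile range of 2229 to 3089 bp. The narrower 4082 regions had a median of 839 bp. Of the broad regions, 103 (45.0%) were at most 2500 bp wide, 61 (26.6%) were over 2500 and up to 3000 bp, and 65 (28.4%) exceeded 3000 bp. Only 19 exceeded 4000 bp and 4 exceeded 5000 bp. The wildtype-specific list had the longer tail, with 599 of 8658 regions (6.92%) over 2000 bp. Over 4000 bp it held 102 regions (1.18%) and over 5000 bp 48 (0.554%), against 0.441% and 0.0928% of the rCGG-specific list. Over 1500 bp the shares were close, 12.3% of the wildtype-specific and 12.1% of the rCGG-specific list. Over 1000 bp the order was reversed, with 24.7% and 29.5%.

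Widths were continuous across the threshold. Just inside it lay chr4:152781252-152783252 with 2001 bp, chr11:95264560-95266573 with 2014 bp and chr14:46124865-46126879 with 2015 bp. Just outside it lay chr2:20816420-20818417 with 1998 bp, chr11:121424039-121426029 with 1991 bp and chr2:106300756-106302744 with 1989 bp. Scores of the inner regions were 55.84, 54.36 and 53.72, and those of the outer regions 61.87, 67.13 and 58.33.

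The 10 widest regions had scores from 50.13 to 102.46, which ranked from 4274th to 130th in the list. The 19 regions over 4000 bp had a median score of 74.48. The whole list had a median of 59.35 and an upper quartile of 69.45. The score is the authors' own value per region, with no stated scale and a lowest value of 50.00, so it gives an order and no size. The widest region, chr15:87525230-87530604 (5375 bp), had a score of 73.72. It was followed by chr14:26159148-26164330 (5183 bp, score 59.27), chr5:107570857-107575925 (5069 bp, score 75.77) and chr13:112904730-112909740 (5011 bp, score 102.46). Next came chr1:39489531-39494288 (4758 bp, score 59.09) and chr11:49747459-49752001 (4543 bp), whose score of 50.13 ranked 4274th in the list. The 7th to 10th were chr8:119800937-119805449 (4513 bp), chr16:24474677-24479113 (4437 bp), chr12:41192330-41196713 (4384 bp) and chr5:106813336-106817645 (4310 bp), with scores of 85.74, 92.49, 83.83 and 66.93. None of the 10 widest was among the 10 best-scored broad regions.

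A single broad region stood apart by score. At chr8:3623305-3626400, a stretch of 3096 bp had a score of 1868.47, the highest of the list, while the second-best broad region had 141.84. The RefSeq gene table of GRCm38 places Pcp2, a Purkinje cell gene whose promoter is widely used to express transgenes in these cells, on chromosome 8. Whether the region overlaps that gene was not determined, because no annotation of mm9 was used. Captured fragments do not separate more 5hmC per copy from more copies of a stretch, and the copy number of this region in the rCGG animals was not tested, so its score cannot be read as a gain of 5hmC alone. Its nearest rCGG-specific neighbour lay 376.9 kb away and its nearest wildtype-specific neighbour 16.3 kb away.

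All other broad regions had scores within the range of the narrower ones, whose highest was 235.59. After the best came chr1:54031495-54034876 (score 141.84), chr2:104200688-104203646 (119.73) and chr10:111318096-111320838 (109.57). The remaining 6 of the 10 best lay on chromosomes 2, 3, 6, 8 and 9, with scores from 105.86 to 108.66. The best 10 regions of the whole list included 1 broad region, the best 50 included 2 and the best 100 included 7. The median score was 61.52 for broad and 59.34 for narrower regions, and 24.5% against 16.3% reached a score of 75. Width and score come from the same comparison, so these values describe the list and were not tested. Among broad regions the median score was 59.93 up to 2500 bp wide and 67.85 over 3000 bp wide.

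**Figure D1:**
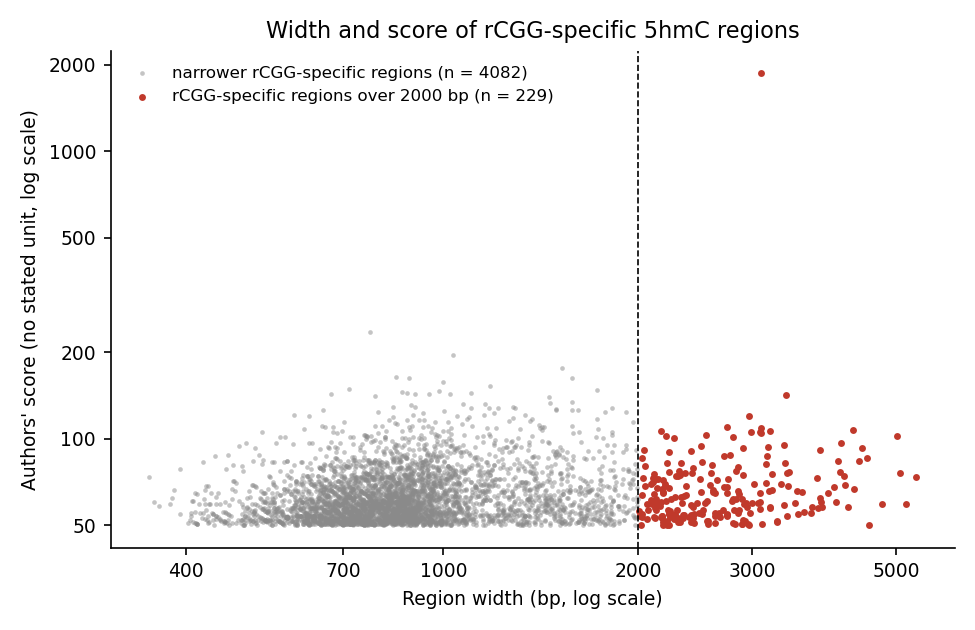
Width in bp (x, log scale) against the authors' score (y, log scale) of each rCGG-specific region, with the 229 broad regions in red, the 4082 narrower ones in grey and a dashed line at 2000 bp. Points run on across the line without a gap, and a single broad region, at a score of 1868.47, lies above all others.

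Broad regions were spread over all 19 autosomes, with 4 to 24 on each. Chromosomes 1 and 2 held the most, 24 each, and chromosome 19 the fewest. Relative to all rCGG-specific regions of the chromosome, the share was highest on chromosome 15 (13 of 164, 7.93%, interval 4.29% to 13.2%), chromosome 13 (14 of 190, 7.37%) and chromosome 3 (19 of 272, 6.99%). It was lowest on chromosome 6 (5 of 236, 2.12%, interval 0.691% to 4.88%), chromosome 12 (7 of 217, 3.23%) and chromosome 8 (8 of 245, 3.27%). On the X chromosome 0 of 23 regions were broad, with an exact interval from 0% to 14.8%. Taking 3 counts of the total as the limit that a count of 0 allows gives 13.0%.

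The differences between chromosomes were small against their counting error. Of 20 comparisons of a chromosome with all others, 1 had an interval that left out 0, without adjustment for their number. This was chromosome 6, whose 2.12% compares with 5.50% elsewhere (difference -3.38 percentage points, interval -4.80 to -0.556). For chromosome 15, the highest, the difference was 2.72 points (-0.597 to 7.92). With broad defined as over 2500 bp, or with only regions scored 75 or more, no chromosome had such an interval, and with broad defined as over 1500 bp there were 3. The order of the chromosomes was not stable either. With the score limit, chromosome 3 had a share of 2.94% (interval 0.0744% to 15.3%) and chromosome 6 of 5% (0.611% to 16.9%). At 1500 bp chromosome 12 (6.91%, 3.92% to 11.1%) lay below chromosome 6 (8.05%, 4.92% to 12.3%). The intervals of these shares are wide and overlap.

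**Figure D2:**
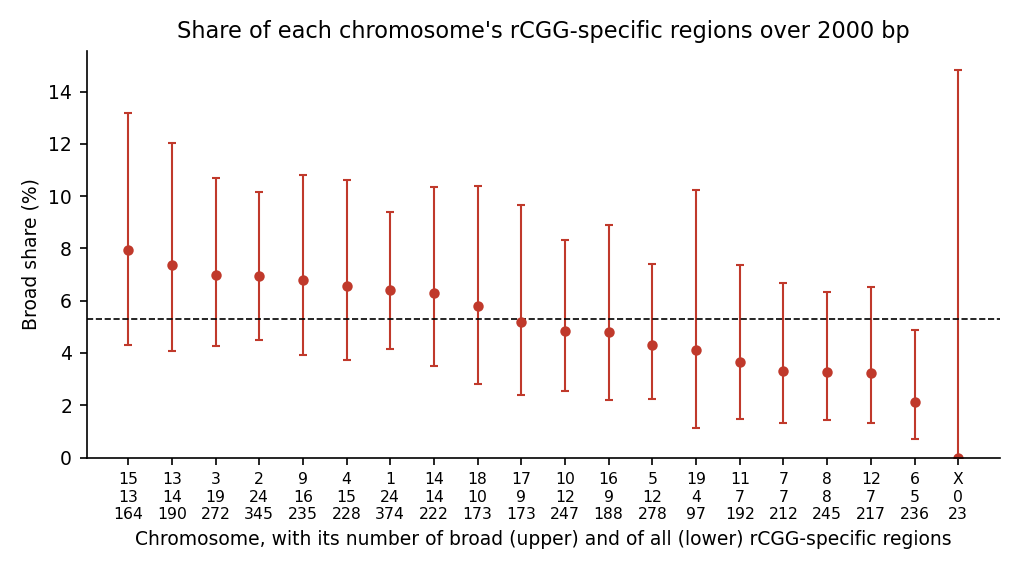
Share of each chromosome's rCGG-specific regions that are over 2000 bp wide (points, %, with 95% exact intervals), ordered by share, with the number of broad and of all regions under each chromosome and a dashed line at the overall 5.31%. The autosomes run from 7.93% on chromosome 15 to 2.12% on chromosome 6, all intervals but that of chromosome 6 cross the line, and X has no broad region among 23.

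No difference between broad and narrower regions in the distance to other rCGG-specific regions was detectable at 10 or 100 kb. The nearest such region was at a median of 84.3 kb (95% interval of the median, from order statistics, 63.9 to 102 kb) from a broad region and 105.8 kb (98.5 to 112 kb) from a narrower one. Within 100 kb, 126 of 229 broad regions (55.0%) and 1991 of 4082 narrower ones (48.8%) had an rCGG-specific neighbour, a difference of 6.25 points (-0.406 to 12.7). Within 10 kb the order was the other way, 17 (7.42%) against 394 (9.65%), a difference of -2.23 points (-5.12 to 2.00). Neither interval left out 0. At wider limits, looked at afterwards, the intervals did: the difference was 7.81 points (1.69 to 13.1) at 200 kb, 5.46 points (1.76 to 7.77) at 500 kb and 2.43 points (0.123 to 3.30) at 1 Mb. Put the other way, 11 of 229 broad regions (4.80%) had no other rCGG-specific region within 500 kb, against 10.3% of narrower ones. This restates the difference at 500 kb with its sign reversed and is no further result.

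The smallest gaps between a broad region and another rCGG-specific region were to narrower regions. Narrower regions as a whole had a median width of 839 bp and an upper quartile of 1006 bp. At chr11:114236090-114238410 (2321 bp) the next region began 253 bp further on and had 790 bp. At chr4:149850373-149852670 (2298 bp) a region of 1027 bp lay 823 bp away. At chr17:48714244-48717140 (2897 bp, score 93.06) a region of 1499 bp lay 1249 bp away. Among the 17 broad regions with an rCGG-specific neighbour within 10 kb, only the pair at chr18:14068966-14071300 and chr18:14078082-14080409, with 6781 bp between them, were broad on both sides. At the other end, chr9:40148817-40151775 (2959 bp) had no rCGG-specific region within 2147 kb and chr14:26159148-26164330, the second widest, none within 1380 kb. The third most isolated, chr3:139613528-139615803 (2276 bp), had none within 903.1 kb.

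For the distance to wildtype-specific regions, too, no difference between broad and narrower regions was detectable at 10 or 100 kb. The median distance was 78.6 kb (69.3 to 100.0 kb) for broad and 87.3 kb (83.2 to 91.5 kb) for narrower regions. A wildtype-specific region lay within 100 kb of 130 broad regions (56.8%) and of 2208 narrower ones (54.1%), a difference of 2.68 points (-3.98 to 9.12). Within 10 kb the counts were 12 (5.24%) and 301 (7.37%), a difference of -2.13 points (-4.51 to 1.64). Of the 8 limits computed from 1 kb to 1 Mb, only that of 20 kb, looked at afterwards, gave an interval without 0, with 24 (10.5%) against 640 (15.7%), a difference of -5.20 points (-8.73 to -0.434). With broad defined as over 1500 bp, the difference within 100 kb was 4.99 points (0.435 to 9.43). No broad region overlapped a wildtype-specific one. For 118 broad regions (51.5%, 44.8% to 58.2%) the nearest region of either list was rCGG-specific, against 48.0% of narrower ones.

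**Figure D3:**
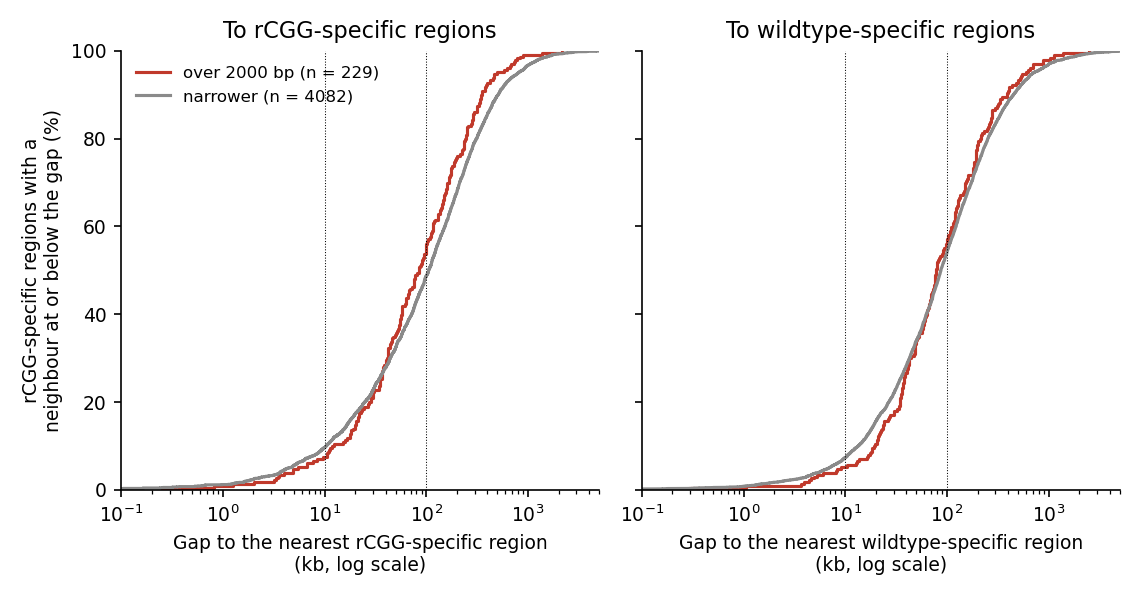
Cumulative share of rCGG-specific regions (y, %) whose gap to the nearest rCGG-specific region (left) or wildtype-specific region (right) is at or below the value on the x axis (kb, log scale), for broad (red, n = 229) and narrower (grey, n = 4082) regions, with dotted lines at 10 and 100 kb. In both panels the curves run close together, red below grey at 10 kb and above it at 100 kb.

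At a few broad regions a region of the opposite direction lay close by. At chr3:69306754-69309950 (3197 bp, score 58.09) a wildtype-specific region of 515 bp, chr3:69305942-69306456, ended 297 bp before the broad region began. At chr19:3429304-3432074 (2771 bp, score 88.07) a wildtype-specific region of 1297 bp with a score of 95.21 lay 1057 bp away. The next nearest pairs were at chr10:111318096-111320838 with a gap of 3689 bp, chr5:107570857-107575925 with 3886 bp and chr18:65161789-65165149 with 4405 bp. The chromosome 10 region is also number 4 of the broad regions by score, and the chromosome 5 region number 3 by width.

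Other broad regions lay in stretches with no wildtype-specific region. A total of 15 of 229 (6.55%, 3.71% to 10.6%) had none within 500 kb, against 351 of 4082 narrower ones (8.60%), a difference of -2.05 points (-4.74 to 2.01). The farthest was chr10:33736337-33738563 (2227 bp) at 2491 kb, followed by chr19:34900678-34902792 at 1373 kb and chr12:39546132-39548563 at 1133 kb. On chromosome 9, chr9:13269730-13272564 and chr9:13378431-13381519 lay 1129 and 1020 kb from the nearest wildtype-specific region, and each had 5 other rCGG-specific regions within 500 kb. The 10 best-scored broad regions include the second of these, with a score of 108.66, and chr9:28854247-28857437, with 106.69 and no wildtype-specific region within 698.9 kb.

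Among the broad regions, the wider ones had a wildtype-specific neighbour more often and an rCGG-specific one less often, by amounts within their intervals. A wildtype-specific region lay within 10 kb of 2 of 103 regions up to 2500 bp wide (1.94%, 0.236% to 6.84%), 4 of 61 up to 3000 bp (6.56%) and 6 of 65 over 3000 bp (9.23%, 3.46% to 19.02%). Within 100 kb the shares were 52.4%, 57.4% and 63.1%, and 14 of the 19 regions over 4000 bp (73.7%, 48.8% to 90.9%) had one. For rCGG-specific neighbours within 10 kb the order was the opposite, 9.71%, 6.56% and 4.62%, and 0 of the 19 widest had one. The intervals of these classes overlap throughout, and the classes were set after the values had been seen.

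Broad regions were found near other broad regions more often than narrower ones were. Of the 229, 24 (10.5%, 6.83% to 15.2%) had another broad rCGG-specific region within 100 kb, against 157 of 4082 narrower regions (3.85%, 3.28% to 4.48%). Within 200 kb the shares were 20.5% and 6.44%, within 500 kb 30.1% and 13.4%, and within 1 Mb 36.7% and 22.2%. The nearest rCGG-specific region was itself broad for 36 of 229 broad regions (15.7%, 11.3% to 21.1%) and for 228 narrower ones (5.59%, 4.90% to 6.34%), where 5.31% of the list is broad. This result was added after the values had been seen, neighbouring broad regions count each other, and widths of neighbours come from the same comparison as the rule, so the intervals describe the list and no test was made.

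The shares were also computed at equal chromosome composition and per neighbour. With the narrower regions weighted to the chromosomes of the broad ones, their shares were 4.15% within 100 kb and 24.2% within 1 Mb. Among all rCGG-specific regions within 100 kb of a broad region, 28 of 191 (14.7%) were broad, against 163 of 3051 (5.34%) around narrower regions. Within 500 kb it was 86 of 731 (11.8%) against 645 of 12227 (5.28%). The 24 broad regions closest together were then left out of the counted regions but kept as possible neighbours. Of the remaining 205, 60 (29.3%, 23.1% to 36.0%) had a broad region within 1 Mb, 7.10 points (1.15 to 13.8) above the narrower regions. The share with the 24 also removed as neighbours was not computed. The difference within 1 Mb was 14.5 points in the whole list, 6.03 points (-0.627 to 17.3) when only regions scored 75 or more were kept, and 7.65 points with broad defined as over 1500 bp.

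**Figure D4:**
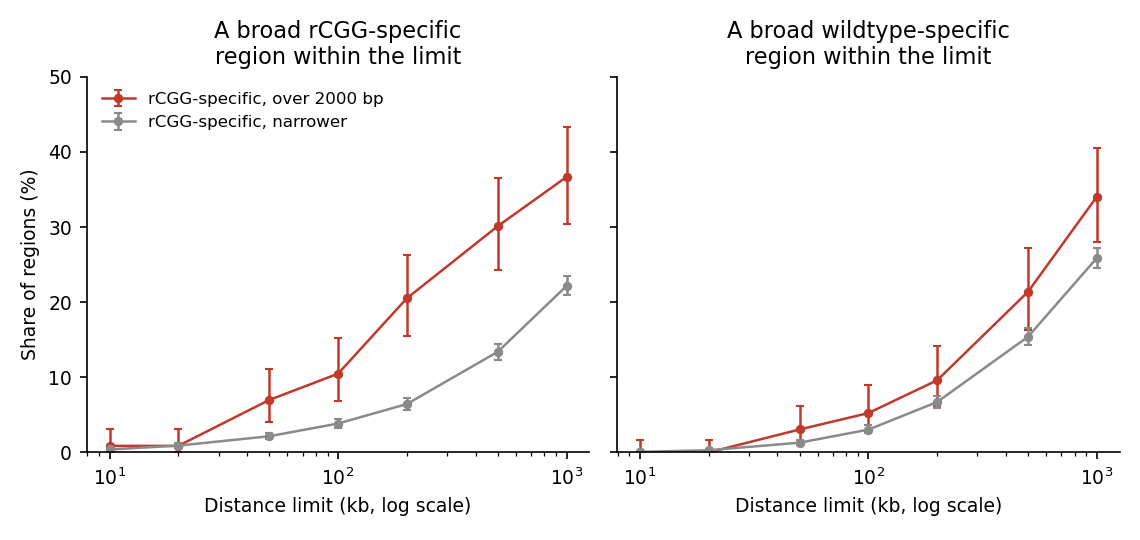
Share of broad (red) and narrower (grey) rCGG-specific regions (y, %, with 95% exact intervals) that have a broad rCGG-specific region (left) or a broad wildtype-specific region (right) within the distance on the x axis (kb, log scale). On the left red lies above grey from 50 kb on, reaching 36.7% against 22.2% at 1 Mb, and on the right the curves are closer, 34.1% against 25.9%.

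The 24 regions formed 11 runs with gaps under 100 kb, 9 pairs and 2 triples. In 10 of the 11, no narrower rCGG-specific region lay between the broad ones, and 5 of the 11 held a wildtype-specific region. The same shares for narrower regions with gaps under 100 kb were not computed, so these counts describe the runs alone. The tightest was the chromosome 18 pair named above, 11.4 kb from end to end, with no wildtype-specific region within 50 kb of it. On chromosome 16, chr16:24474677-24479113 (score 92.49) and chr16:24500610-24503716 (3107 bp, score 50.40) were 21.5 kb apart. No wildtype-specific region lay within 495.9 kb of the first or within 521.8 kb of the second. Each of them had 9 other rCGG-specific regions within 500 kb.

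Both triples were interrupted by wildtype-specific regions. On chromosome 2, chr2:135668386-135671098, chr2:135743234-135746047 and chr2:135782839-135785202 spanned 116.8 kb, with scores of 87.30, 56.35 and 75.71. A narrower rCGG-specific region of 1370 bp lay 2021 bp before the first, and a wildtype-specific region of 1617 bp (score 83.79) lay between the first and the second. Another broad region, chr2:135516528-135520812 (4285 bp, score 107.42), lay 147.6 kb before the triple. On chromosome 3, chr3:69219896-69222713, chr3:69249369-69251926 and chr3:69306754-69309950 spanned 90.1 kb with low scores of 50.58, 51.60 and 58.09. This triple held the closest wildtype-specific neighbour of the whole group, at 297 bp, and was preceded by a broad wildtype-specific region of 3304 bp that ended 22.1 kb before it.

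Of the 9 pairs, 3 enclosed wildtype-specific regions. On chromosome 1, 2 wildtype-specific regions with scores of 87.25 and 116.90 lay between chr1:39489531-39494288 and chr1:39569664-39571726, which had the lower scores of 59.09 and 52.63. On chromosome 13, a wildtype-specific region of 432 bp lay between chr13:112858715-112862503 and chr13:112904730-112909740, number 4 by width. On chromosome 15, a region of 1098 bp lay between chr15:84657989-84660544 and chr15:84717964-84720317, around which wildtype-specific regions were dense, 21 and 18 within 500 kb against 2 and 1 other rCGG-specific regions. The other 6 pairs enclosed none. Besides those on chromosome 16 and, at 11.4 kb, chromosome 18, these were chr2:121444498-121446714 with chr2:121487258-121489486, chr13:29505808-29508315 with chr13:29564322-29566742, chr18:65124916-65127243 with chr18:65161789-65165149, and chr19:46875262-46878481 with chr19:46926679-46929143. Only the chromosome 19 pair enclosed a narrower rCGG-specific region, of 831 bp.

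**Figure D5:**
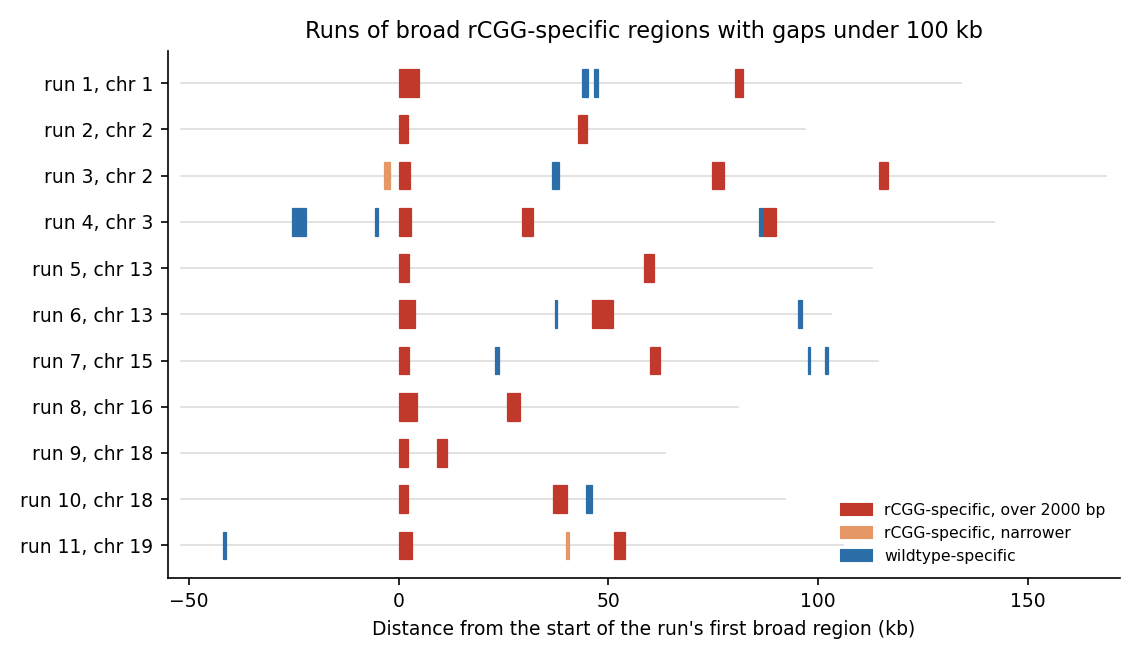
The 11 runs of broad rCGG-specific regions with gaps under 100 kb, each on a line, with distance from the start of its first broad region in kb (x) and 50 kb on either side. Red boxes are broad and orange boxes narrower rCGG-specific regions, and blue boxes are wildtype-specific regions, which lie inside 5 of the 11 runs.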

How the data were processed

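Captured 5hmC fragments of 6 cerebella were sequenced from one end. Reads were aligned with Bowtie 0.12.9 to mm9 and HOMER was also used, per the submitters' processing notes. Peak names are in the form MACS writes; the sources used here do not give its settings, its control or any pooling of libraries, and each of these can set a region's width. The authors deposited 1 score per region, in 2 lists without a header.

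Gaps were counted between nearest edges. Python 3.11.15 with numpy 2.4.6, pandas 2.3.3, scipy 1.17.1 and matplotlib 3.10.9 was used, and the functions were tested on simulated data. The members, measures and comparisons were chosen with earlier results of these data known. A rule fixed with the tests named the 10 widest and 10 best-scored regions, 3 regions on either side of the threshold, all runs with gaps under 100 kb, the 5 nearest to and farthest from wildtype-specific regions, the 3 most isolated, and the chromosomes with extreme shares. The other regions named as close to an rCGG-specific region, and the broad neighbours, were chosen after their values were seen. Alternatives covered the width threshold, score, merging, midpoints, the comparison group and a restriction to autosomes. Planned comparisons of gene features and sequence content were not made, since they need mm9.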

Additional observations from a re-analysis of the deposited data

How the results depend on the processing

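The width threshold set how many regions were broad, 522 at 1500 bp and 126 at 2500 bp against 229, and 56 broad regions had a score of at least 75. The number of chromosomes with an interval that left out 0 was 1, and it was 3 at 1500 bp, 0 at 2500 bp and 0 at that score. At that score the median distance from a broad region to rCGG-specific regions was 517.2 kb (244.1 to 1129 kb). To wildtype-specific regions it was 203.1 kb (127.2 to 404.2 kb). The differences from narrower regions were -239.9 and -226.7 kb, and the reason for their size was not tested. The difference in rCGG-specific neighbours within 10 kb turned to 3.25 points (-0.534 to 12.5), and that in wildtype-specific neighbours within 100 kb was 10.2 points (-0.036 to 23.3). The difference in broad rCGG-specific neighbours within 1 Mb stayed positive in 9 of 9 alternatives, at 6.03 points with that score, where the interval held 0, and 7.65 points at 1500 bp. For rCGG-specific neighbours within 100 kb it ranged from 1.49 to 7.77 points, with 2 of 9 intervals leaving out 0. Against regions of 1000 to 2000 bp it was 2.15 points, and -0.320 points for wildtype-specific neighbours. The difference in median distance to rCGG-specific regions was then -4.481 kb, against -21.56 kb with all narrower regions. To wildtype-specific regions it was -0.654 kb, against -8.655 kb. The score alternative, merging, the restriction to autosomes and the omission of the best-scored region change the number of regions. Why values moved was not tested. The omission was added after seeing the data. No paired analysis was possible because regions, not animals, are the lines of both lists. Unknown depth limits every comparison of widths.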

Other observations

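Chromosomes with a high broad share in one list did not always have one in the other. On 7 of the 19 autosomes the broad share of the rCGG-specific list was above that of the wildtype-specific list and on 12 it was below. Chromosome 19 had the highest broad share in the wildtype-specific list, 11.4% (29 of 255), and 4.12% (4 of 97) in the rCGG-specific list. Chromosome 11 had 10.4% (69 of 663) and 3.65% (7 of 192). The order was the opposite on chromosome 14, with 3.34% (11 of 329) and 6.31% (14 of 222), and on chromosome 13, with 4.08% (13 of 319) and 7.37% (14 of 190). Some chromosomes had a high or a low share in both lists. Chromosome 15 had 9.70% (39 of 402) and 7.93% (13 of 164), and chromosome 6 had 3.99% (18 of 451) and 2.12% (5 of 236). None of these differences was tested.

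Broad wildtype-specific regions lay within 1 Mb of 78 broad rCGG-specific regions (34.1%, 28.0% to 40.6%) and of 25.9% of narrower ones, and within 100 kb of 5.24% and 3.04%. The difference within 1 Mb was 8.17 points (2.18 to 14.7). It stayed positive in 9 of 9 alternatives, of which 6 had intervals that left out 0. Against rCGG-specific regions of 1000 to 2000 bp alone, it was 3.697 points (-2.80 to 10.6). The nearest was 22.1 kb away, at the chromosome 3 triple. Within 500 kb of a broad rCGG-specific region lay a mean of 5.29 wildtype-specific and 3.19 other rCGG-specific regions, against 4.51 and 2.995 for narrower regions. Neither pattern was tested, and both were looked at after the other values had been seen.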
